A study of Mus musculus with 4 samples.

Results

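The pancreatic digestive proteases described here are 9 genes of the exocrine pancreas, listed as Ctrb1, Ctrl, Cpa1, Cpb1, Ela1, Ela3, Try4, 2210010C04Rik and 1810009J06Rik. They were found by gene symbol in the deposited value table, which holds 18091 genes, and 8 of the 9 were present. Ela3 was absent under that symbol, but the annotation gives both Ela3 and Ela3b as older names of Cela3b, and the table holds Ela3b, which is described after the 8. Ela1 is the older name of Cela1. The remaining 7 symbols match the reference annotation as written.

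Their RNA was measured in insulinomas of RT2 (Rip1Tag2) mice, in which the insulin promoter drives the SV40 large T antigen in beta cells. Control mice received PBS, and treated mice received sEphB4-Alb, the soluble extracellular part of the receptor EphB4 fused to albumin. The dose was 10 mg/kg into the peritoneum, given 3 times a week from 10 weeks of age until tumors were collected at 13.5 weeks. Each group had 6 mice, and RNA of 2 tumors per group was hybridised, each to 1 Illumina MouseRef-8 v2.0 array. By the study's methods the array tumors came from RT2 mice of the Dll4+/+ genotype. The sample labels name both CD1 and C57/BL6 backgrounds, while the series' own design text names C57/BL6 only. The methods give a CD1 background for the treated Dll4+/+ mice, so the strain of each tumor is not settled. All groups carried the transgene and drank sugar water late in the trial. The mouse of origin of each tumor is not labelled, so every p-value below measures only the spread between these tumors.

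Acinar cells of the pancreas make digestive proteases as inactive zymogens, store them in granules and release them into the duct. In the gut, enteropeptidase cuts trypsinogen, and active trypsin then cuts the other zymogens. Trypsins, chymotrypsins and elastases are serine proteases with different preferred residues, and carboxypeptidases are zinc enzymes that trim residues from the end of the chain. Insulinomas derive from beta cells, which are not the usual source of these enzymes, and acinar tissue surrounds the islets.

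Acinar genes share promoter elements, so the letters before the start sites are shown for 4 of the genes whose values follow. They are a chymotrypsin, an elastase and a pair grouped with the trypsinogens. Each window holds the 250 bases before the start in RefSeq's annotation of GRCm38.p6, on the strand of the gene. Capitals mark CANNTG (the E-box), TTTCCC and TATAAA, searched on both strands. Ctrb1 lies at chr8:111691011-111691260 (minus strand), Ela1 at chr15:100687921-100688170 (minus strand), Try4 at chr6:41302022-41302271 (plus strand) and 2210010C04Rik at chr6:41035510-41035759 (minus strand).
Ctrb1: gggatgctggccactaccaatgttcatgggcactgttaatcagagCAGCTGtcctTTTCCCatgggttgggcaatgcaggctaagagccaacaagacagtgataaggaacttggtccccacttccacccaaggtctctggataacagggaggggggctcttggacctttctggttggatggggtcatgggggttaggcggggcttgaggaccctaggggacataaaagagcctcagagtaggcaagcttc
Ela1: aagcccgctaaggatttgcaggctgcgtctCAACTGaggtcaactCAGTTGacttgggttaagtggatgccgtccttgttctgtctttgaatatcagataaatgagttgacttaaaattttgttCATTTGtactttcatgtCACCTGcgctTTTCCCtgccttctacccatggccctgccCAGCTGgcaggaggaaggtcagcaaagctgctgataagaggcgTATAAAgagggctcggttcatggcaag
Try4: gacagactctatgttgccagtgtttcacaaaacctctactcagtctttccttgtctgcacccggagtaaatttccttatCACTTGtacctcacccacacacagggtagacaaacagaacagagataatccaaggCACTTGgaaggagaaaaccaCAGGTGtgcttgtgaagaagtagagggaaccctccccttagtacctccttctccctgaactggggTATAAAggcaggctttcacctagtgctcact
2210010C04Rik: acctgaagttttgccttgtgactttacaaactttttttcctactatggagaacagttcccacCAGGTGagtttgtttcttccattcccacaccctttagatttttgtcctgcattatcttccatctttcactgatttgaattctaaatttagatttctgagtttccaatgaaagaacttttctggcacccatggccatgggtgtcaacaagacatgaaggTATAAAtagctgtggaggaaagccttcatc
Of the 8 proteases, 7 had such a window, and 1810009J06Rik is named only. PTF1, the acinar complex that holds Ptf1a and Rbpjl, is known to bind an E-box followed by a TTTCCC box. These motifs were chosen after the windows had been read. CANNTG occurred in 7 of the 7 windows and in 66.2% of all 32851 windows of that length. CACCTG, which is 1 form of CANNTG, occurred in 5 of 7 against 17.2%. TTTCCC occurred in 3 of 7 against 21.9%, and TATAAA in 3 of 7 against 12.4%. An E-box followed within 20 bases by TTTCCC was found in 2 windows, those of Ctrb1 and Ela1, against 2.03% of all windows. The gap was 4 bases in both, with the E-box starting 205 bases before the start in Ctrb1 and 109 bases before it in Ela1. TATAAA began 27, 31 and 30 bases before the start in Ela1, Try4 and 2210010C04Rik. A match describes letters only and no binding was measured.

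The deposited values are linear intensities. Array medians ran from 135.5 to 168.7 and maxima from 37460 to 55160, with the lowest median in PBS tumor 1 and the highest in sEphB4-Alb tumor 2. The dim genes of each array set a background limit, which lay at 132.7 to 144.7. Tests covered the 10352 genes whose signals passed the limit in both tumors of 1 group or more. All 8 proteases were above background on all 4 arrays. Normalized values are log2 intensities after normexp background correction, then quantile normalized, and groups were compared with limma. The insulin genes Ins1 and Ins2, which define beta cells, gave signals of at least 1247 and 6020 in every tumor. Of the 10 beta cell markers listed, 7 were tested. Pdx1 and Nkx6-1 were below the limit in PBS tumor 1, Mafa passed it in 1 tumor, and Slc2a2 and Pcsk1 passed it in none. With 2 tumors against 2, an exact two-sided permutation test of a single gene cannot go below 0.33.

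All 8 proteases were brightest in sEphB4-Alb tumor 2, and all 8 had their lowest deposited signal in PBS tumor 1. Mean normalized levels were higher in the sEphB4-Alb tumors for all 8, by 0.89 to 2.54 on the log2 scale with a median of 1.59, while the median over all genes tested was -0.02. None passed an adjusted p of 0.05 in limma, where adjusted p ran from 0.744 to 0.832. Across all genes that rule called 0 of 10352 (0%), and 667 genes, 1 of them a protease, had an unadjusted p under 0.05. Tumors of 1 group lay far apart: the median difference between the PBS tumors was 1.92 for the proteases and 0.28 for all genes tested, and between the sEphB4-Alb tumors it was 2.91 and 0.16. In bulk tumor RNA, a difference in the number of acinar cells and a difference in RNA per acinar cell cannot be told apart.

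**Figure D1:**
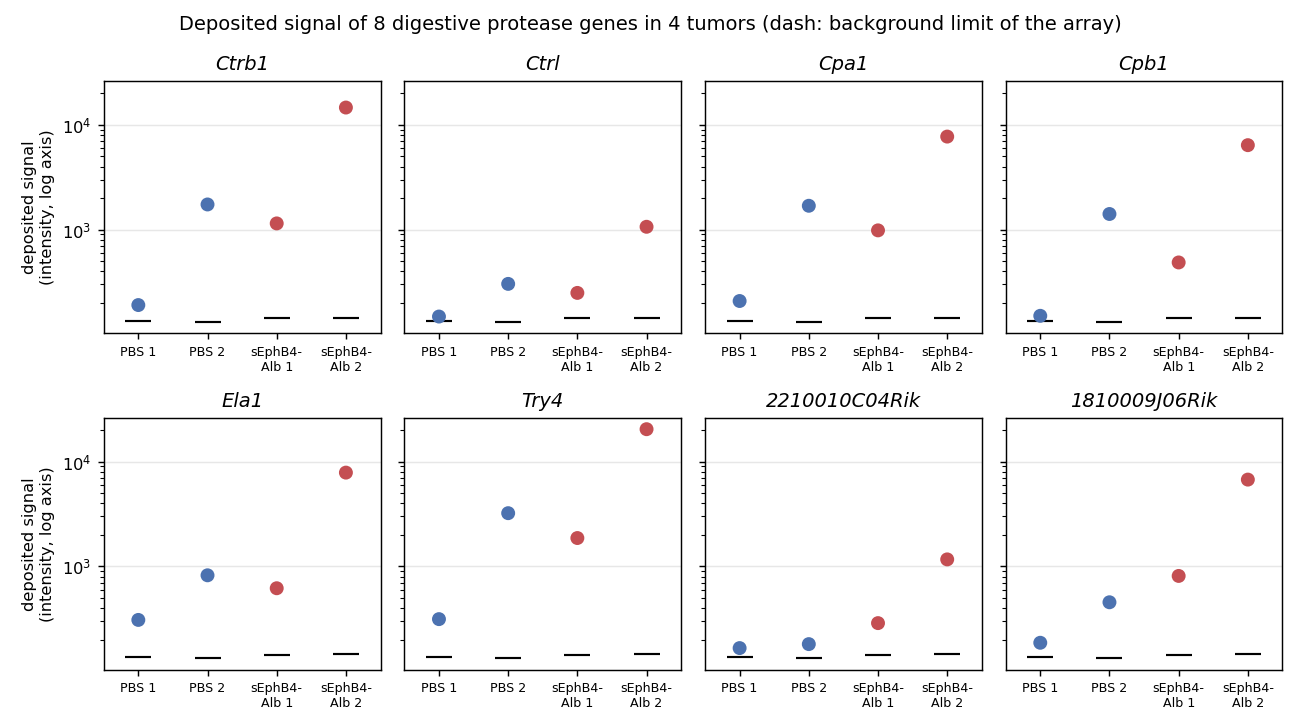
Deposited signal intensity (log axis) of the 8 proteases, 1 panel per gene and 1 point per tumor, with a dash at the background limit of each array. In every panel sEphB4-Alb tumor 2 is the brightest and PBS tumor 1 the dimmest; the Ctrb1 points run from 190.8 to 14636.

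Ctrb1 encodes chymotrypsinogen B, the zymogen of a chymotrypsin that cuts after large aromatic residues. Its deposited signals were 190.8 and 1740 in PBS tumors 1 and 2, and 1147 and 14636 in sEphB4-Alb tumors 1 and 2. The groups overlapped, because sEphB4-Alb tumor 1 lay below PBS tumor 2, and the brightest tumor was 76.7-fold above the dimmest. Normalized log2 levels averaged 9.23 ± 2.15 in PBS and 11.56 ± 2.36 in sEphB4-Alb tumors (SD, n = 2 each). The difference of 2.33 had a standard error of 1.46 and a 95% confidence interval of -1.45 to 6.12 (limma adjusted p = 0.766). Between tumors of the same group Ctrb1 differed by more than that, 3.04 in PBS and 3.34 in sEphB4-Alb. Without sEphB4-Alb tumor 2 the difference was 0.66, and without PBS tumor 1 it was 0.82.

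Ctrl encodes a chymotrypsin-like zymogen of the same secretion. The 4 signals were 148.2 and 303.8 in PBS and 249.2 and 1065 in sEphB4-Alb tumors. PBS tumor 1 was close to the background limit of its array, 135.2, and sEphB4-Alb tumor 1 again lay between the PBS tumors. Ctrl had the smallest difference of the 8, 0.89 with a standard error of 0.74 and an interval of -1.04 to 2.81 (limma adjusted p = 0.805). Mean levels were 7.51 ± 0.75 and 8.40 ± 1.41 (log2, SD, n = 2 each). Leaving out sEphB4-Alb tumor 2 turned the sign of the Ctrl difference, to -0.11.

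Cpa1 encodes procarboxypeptidase A1, whose active form removes aromatic and aliphatic residues from the carboxyl end. Signals of 208.5 and 1690 in PBS tumors stood beside 984.7 and 7732 in sEphB4-Alb tumors. The order of the 4 tumors was that of Ctrb1, with overlapping groups. Levels averaged 9.31 ± 1.96 and 10.96 ± 1.86 (log2, SD, n = 2 each), a difference of 1.648 with a standard error of 1.24 and an interval of -1.56 to 4.85 (limma adjusted p = 0.795). The PBS tumors alone differed by 2.78 and the sEphB4-Alb tumors by 2.62. Without PBS tumor 1 the Cpa1 difference was 0.26, and without sEphB4-Alb tumor 2 it was 0.34.

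Cpb1 encodes procarboxypeptidase B1, which after activation removes basic residues such as those that trypsin leaves at the end of a peptide. It gave signals of 150.6 and 1411 in PBS tumors, and of 486.5 and 6403 in sEphB4-Alb tumors. As for Ctrl, PBS tumor 1 was close to the background limit of its array, 135.2. PBS tumor 2 exceeded sEphB4-Alb tumor 1 by 1.92 on the normalized log2 scale, the widest such gap among the 8. The group means of 8.74 ± 2.41 and 10.27 ± 2.46 (log2, SD, n = 2 each) differed by 1.53, with a standard error of 1.57 and an interval of -2.55 to 5.61 (limma adjusted p = 0.832). Cpb1 turned sign without PBS tumor 1, to -0.18, and without sEphB4-Alb tumor 2, to -0.22.

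Ela1 (Cela1) encodes a pancreatic elastase zymogen of the chymotrypsin-like serine protease fold. In PBS tumors its signals were 308.3 and 821.7, and in sEphB4-Alb tumors 618.3 and 7846. The PBS tumors and sEphB4-Alb tumor 1 lay closer together, and sEphB4-Alb tumor 2 stood alone above them. The normalized levels were 8.73, 9.61, 8.92 and 12.29 in that order. PBS tumors differed by 0.88 and sEphB4-Alb tumors by 3.38. The group difference was 1.43 with a standard error of 1.13 and an interval of -1.50 to 4.37 (limma adjusted p = 0.805). Without sEphB4-Alb tumor 2 it was -0.26.

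Try4 encodes a trypsinogen, the zymogen that starts the cascade once enteropeptidase has cut it. Trypsinogens form a family of near-identical genes, and since probe sequences were not used here, signal shared between members of the family cannot be told apart from signal of 1 member. Try4 gave signals of 313.7 and 3218 in PBS tumors, and 1864 and 20373 in sEphB4-Alb tumors. The order of the tumors was again PBS 1, sEphB4-Alb 1, PBS 2 and sEphB4-Alb 2. Levels averaged 10.23 ± 2.06 and 12.15 ± 2.17 (log2, SD, n = 2 each), a difference of 1.92 with a standard error of 1.37 and an interval of -1.63 to 5.47 (limma adjusted p = 0.789). Without PBS tumor 1 the Try4 difference was 0.47, and without sEphB4-Alb tumor 2 it was 0.39.

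2210010C04Rik and 1810009J06Rik have no gene name or role in the annotation used here and are grouped with the trypsinogens by the gene list. Among 8 genes picked by symbol and ranked by position on chromosome 6, they take places 1 and 2, with 1810009J06Rik first. Try4, Try5, Try10, Prss3, Prss1 and Prss2 follow in that order, and genes lying between them were not looked at. 2210010C04Rik and 1810009J06Rik were the only proteases of the 8 described here with both sEphB4-Alb tumors above both PBS tumors. Among all genes tested 18.5% had that pattern, and 2 of 8 is near that share.

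For 2210010C04Rik the signals were 166.0 and 181.2 in PBS tumors, and 287.4 and 1165 in sEphB4-Alb tumors. The PBS tumors were close to each other, and their order depended on the scale: PBS tumor 2 was the lower after quantile normalization, at 7.11 against 7.34, and the higher in deposited signal. Mean levels of 7.22 ± 0.16 and 8.59 ± 1.32 (log2, SD, n = 2 each) differed by 1.37, with a standard error of 0.62 and an interval of -0.25 to 2.98 (limma adjusted p = 0.747). The exact permutation p was 0.333. Without sEphB4-Alb tumor 2 the difference was 0.43.

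For 1810009J06Rik the signals were 186.6 and 454.3 in PBS tumors, and 810.3 and 6730 in sEphB4-Alb tumors. It had the largest difference of the 8 and the only one whose interval left out 0. Group means were 8.18 ± 0.74 and 10.72 ± 1.94 (log2, SD, n = 2 each), and the difference of 2.54 had a standard error of 0.96 and an interval of 0.06 to 5.02. The unadjusted p was 0.0462, and the limma adjusted p was 0.744. It alone among the proteases passed the thresholds of the study's methods, 2-fold and an unadjusted p under 0.05, in the direction of higher levels after sEphB4-Alb. That rule called 102 genes, or 0.985% of those tested, as higher. The call ended with any 1 tumor left out except sEphB4-Alb tumor 1: limma's unadjusted p was 0.188 without PBS tumor 1, 0.0761 without PBS tumor 2 and 0.0629 without sEphB4-Alb tumor 2. It also ended with no tumor left out: the unadjusted p of the linear model was 0.0648 without background correction, 0.0527 without the filter on dim genes and 0.225 with unmoderated variances.

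**Figure D2:**
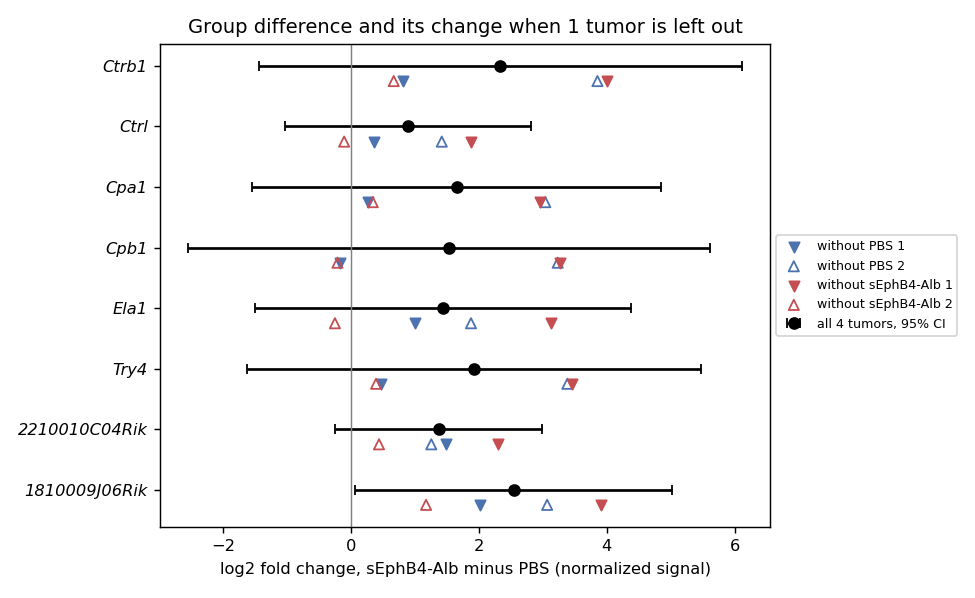
Difference of mean normalized log2 signal, sEphB4-Alb minus PBS, for each protease; black points with bars give the estimate from all 4 tumors and its 95% interval, and the other markers give the estimate with 1 tumor left out. Intervals of 7 of the 8 genes include 0, and estimates without sEphB4-Alb tumor 2 lie between -0.26 and 1.17.

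By size alone, 7 of the 8 proteases had a log2 difference of at least 1, all except Ctrl, and 1.73% of all genes tested did so. This size rested on single tumors. Without sEphB4-Alb tumor 2 the median of the 8 was 0.36, and without sEphB4-Alb tumor 1 it was 3.20. Without PBS tumor 1 it was 0.64, and without PBS tumor 2 it was 3.05. After sEphB4-Alb tumor 1 was left out, 7 of the 8 passed 2-fold at an unadjusted p under 0.05, against 1.47% of all genes tested. After any 1 of the other tumors was left out none did, against 0.821% of all genes without PBS tumor 1, 2.89% without PBS tumor 2 and 1.17% without sEphB4-Alb tumor 2.

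Levels of these genes varied widely between single tumors. From the lowest to the highest tumor, normalized levels spanned 5.52 for Ctrb1, 4.97 for Cpb1, 4.92 for Try4, 4.44 for 1810009J06Rik, 4.35 for Cpa1, 3.56 for Ela1, and 2.41 for both Ctrl and 2210010C04Rik. The median over the 8 was 4.39, against 0.48 for all genes tested. Only 6 of the 10352 genes tested had a wider span than Ctrb1. In both groups the tumors were at least 1 apart for 6 of the 8, all but Ela1 and 2210010C04Rik, and 0.773% of all genes tested met that condition.

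**Figure D3:**
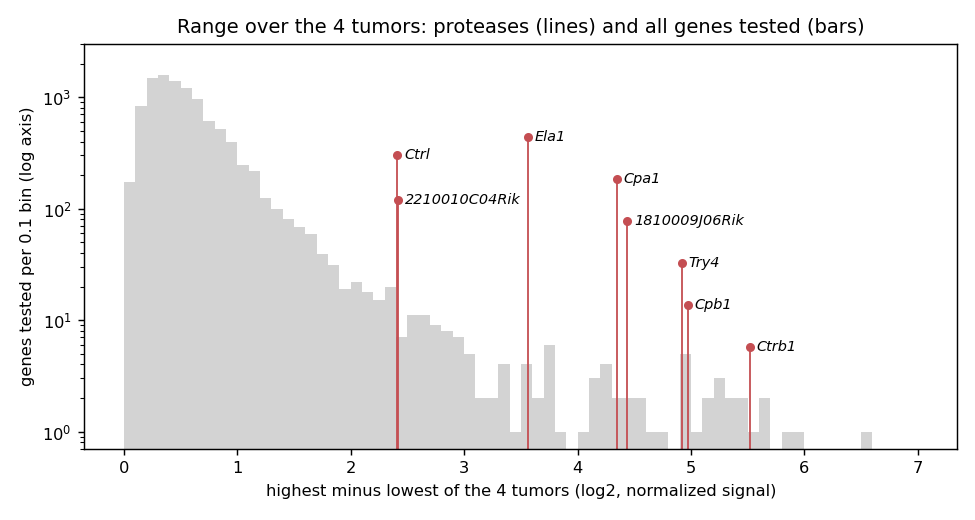
Histogram of the span from the lowest to the highest of the 4 tumors (log2, normalized) over all genes tested, on a log count axis, with a vertical line at each protease; line heights carry no value. The proteases lie in the right tail, from 2.41 to 5.52, against a median of 0.48 for all genes tested.

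The order PBS tumor 1, sEphB4-Alb tumor 1, PBS tumor 2, sEphB4-Alb tumor 2, from low to high, held for 6 of the 8 proteases. Of all genes tested, 3.86% had it. The exceptions were 2210010C04Rik and 1810009J06Rik, in which sEphB4-Alb tumor 1 exceeded PBS tumor 2 by 0.55 and 0.65. In the other 6 it was the lower, with differences from -0.64 in Ctrl to -1.92 in Cpb1. sEphB4-Alb tumor 2 exceeded PBS tumor 2 in all 8, by 1.35 in Ctrl to 3.39 in 1810009J06Rik. sEphB4-Alb tumor 1 exceeded PBS tumor 1 in all 8 as well, by 0.18 in Ela1 to 2.18 in Ctrb1.

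Profiles were then compared after each gene was centred on its own mean, by the root mean square difference over the 4 tumors. Cpa1 and Try4 were the closest of the 28 pairs, at 0.22, followed by Ctrb1 and Try4 at 0.23 and Cpb1 and Try4 at 0.30. The profiles of a chymotrypsin, both carboxypeptidases and a trypsin thus lay within 0.44 of each other. Ctrl was closest to 2210010C04Rik, at 0.52, and Ela1 to Ctrl, at 0.57. The farthest pairs were Cpb1 and Ctrb1 with 2210010C04Rik, at 1.41 and 1.36, and the median pair was at 0.75. These are descriptions over 4 tumors that share the arrays.

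**Figure D4:**
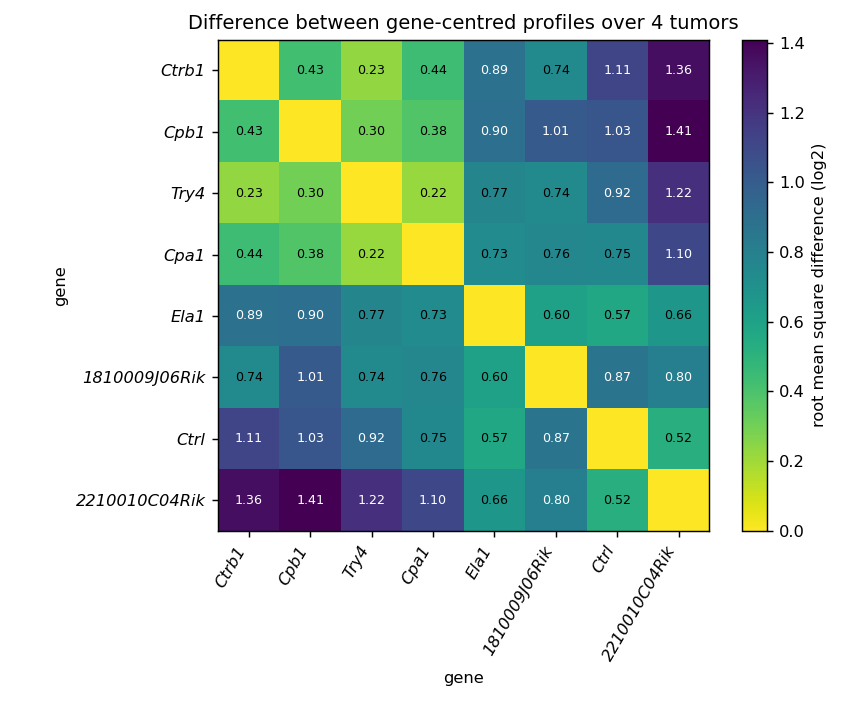
Root mean square difference (log2) between the gene-centred profiles of each pair of proteases over the 4 tumors, darker for less alike. Ctrb1, Cpb1, Try4 and Cpa1 form the light block, with no pair above 0.44, and 2210010C04Rik is the least like them.

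Over the 8 proteases the mean centred profile was -1.78 in PBS tumor 1, 0.08 in PBS tumor 2, -0.55 in sEphB4-Alb tumor 1 and 2.26 in sEphB4-Alb tumor 2. The 8 genes outside the group with the most similar profile, by the same measure over the 4 tumors, were Reg3b, Pnliprp2, Cuzd1, Klk1, Prss3, Amy2, Reg3a and Pla2g1b, at 0.18 to 0.34. Amy2 is a pancreatic amylase, Pla2g1b the pancreatic phospholipase A2, Pnliprp2 a lipase-related protein and Prss3 a trypsinogen. Reg3b and Reg3a are secreted lectins, and the Reg3b signals were 407.8 and 2033 in PBS tumors and 1996 and 12588 in sEphB4-Alb tumors. Their group differences were 1.45 to 2.15 and limma adjusted p was 0.749 to 0.805.

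Of the other digestive proteases listed, 8 were tested, and all 8 had a higher mean in sEphB4-Alb tumors with a median difference of 1.73. None passed the 2-fold rule, against 0.985% of all genes tested. Among them are the elastase gene Ela2a and the trypsinogens Try10, Prss2 and Prss3. Prss3 and Klk1 were below the limit in PBS tumor 1, so they were tested only through the sEphB4-Alb tumors. Ela3b, the gene that the list of members names Ela3, had signals of 148.1 and 1168 in PBS tumors and 713.7 and 9831 in sEphB4-Alb tumors. Its groups overlapped, and its difference of 2.34, the largest of these 8, had a standard error of 1.53 and an interval of -1.63 to 6.31 (limma adjusted p = 0.769). The low-to-high order of the tumors described above held in 7 of 8, against 3.86% of all genes tested. Prss2 was the exception, with signals of 180.4 and 338.3 in PBS tumors and 483.6 and 3898 in sEphB4-Alb tumors. Its groups did not overlap, as in 2210010C04Rik and 1810009J06Rik.

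Among other secreted proteins of acinar cells 16 were tested, with a median difference of 2.10. The same tumor order held in 12, against 3.86% of all genes tested. Of these 16, Amy2-2, Cel and Pla2g1b were below the limit in PBS tumor 1 and were tested only through the sEphB4-Alb tumors. The 2-fold rule called 2 of the 16 higher, against 0.985% of all genes tested. Spink3, a secreted trypsin inhibitor, had signals of 370.5 and 2138 in PBS tumors and 4207 and 15275 in sEphB4-Alb tumors, a difference of 2.49 (unadjusted p = 0.0285 in limma). Tff2, a trefoil peptide, had signals of 313.1 and 1100 in PBS tumors and 4340 and 9109 in sEphB4-Alb tumors, a difference of 2.79 (unadjusted p = 0.00257 in limma). The groups did not overlap in either gene, but both were picked by their p-value. Of the 16 genes tested, 4 had both sEphB4-Alb tumors above both PBS tumors. So did 2 of the 8 proteases and 18.5% of all genes tested. Gp2, a zymogen granule membrane protein, had the largest difference of that list, 3.02, and the lipase-related Pnliprp1 the smallest, 0.64.

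Transcription factors of acinar cells ranged from dim to bright. Xbp1, which other secretory cells also use, gave signals of 2828 to 8077. Ptf1a, the defining subunit of PTF1, was at 130.5 and 135.4 in PBS tumors and at 131.9 and 208.1 in sEphB4-Alb tumors, and passed the background limit in 1 tumor of each group, PBS tumor 2 and sEphB4-Alb tumor 2. In PBS tumor 2 the limit was 132.7, so the Ptf1a signal there was only just above background. Normalized Ptf1a levels spanned 0.72 between tumors and were lowest in sEphB4-Alb tumor 1, at 6.21. The value table held 6 such factors, of which 3 were tested, with a median difference of 0.11. Prss7, the older name of enteropeptidase, was above background in no tumor, at 113.8 to 126.3. Among 7 activators and inhibitors tested Spink3 was the only call, against 0.985% of all genes tested, and the median difference was 0.27. Ctsb, cathepsin B, which can cut trypsinogen, differed by 0.26.

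Proteases of related families that other cells make had another profile. Their 7 tested genes had a median difference of 0.27, no call under the 2-fold rule, and centred means between -0.12 and 0.17 in every tumor. None had the tumor order of the acinar proteases. Cpa3, Mcpt4 and Cma1, proteases that mark mast cells, were not tested because they stayed below the limit in at least 1 tumor of each group.

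**Figure D5:**
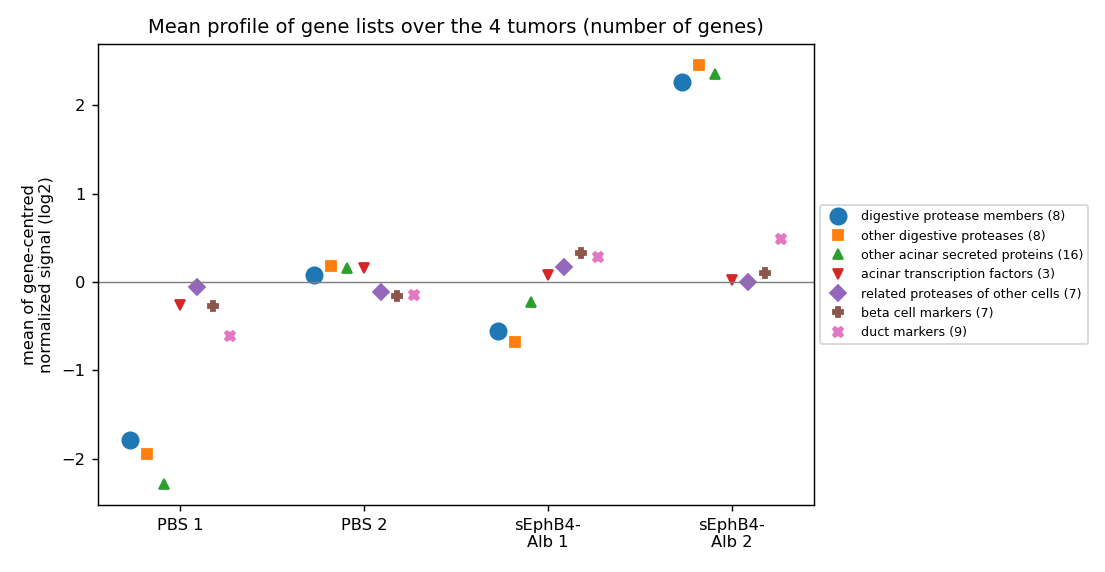
Mean of gene-centred normalized log2 signal in each tumor for the 8 proteases and for 6 other lists, with the number of genes tested in parentheses. The proteases run from -1.78 in PBS tumor 1 to 2.26 in sEphB4-Alb tumor 2, close to the other digestive proteases and the acinar secreted proteins, while related proteases of other cells stay between -0.12 and 0.17.

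Markers of other cell types were read beside these values. Summed signals of 9 acinar markers in the table were 1673 and 12820 in PBS tumors and 9642 and 85900 in sEphB4-Alb tumors, and 4 of these markers are proteases of the group described here. Summed signals of 10 beta cell markers were 15540 and 25210 in PBS tumors and 40040 and 46440 in sEphB4-Alb tumors, with Ins1 at 1247, 1543, 4010 and 4352 in the 4 tumors. For 9 duct markers the sums were 1393 and 2645 in PBS tumors and 4050 and 5462 in sEphB4-Alb tumors. Of these 9, 3 passed the 2-fold rule as higher, against 0.985% of all genes tested. The 3 were Krt8, Krt19 and Muc1, and the last 2 were below background in PBS tumor 1. These sums are of signals that were not scaled between arrays, and the sEphB4-Alb arrays were the brighter. The sums of the macrophage, lymphocyte, fibroblast, endothelial, and alpha, delta and PP cell markers and of the related proteases were also higher in both sEphB4-Alb tumors. Red blood cell markers summed to 12850 and 4749 in PBS tumors and 3097 and 7692 in sEphB4-Alb tumors. After normalization the mean centred level of the beta cell markers tested was -0.27 and -0.16 in PBS tumors and 0.32 and 0.11 in sEphB4-Alb tumors, and Ins1 differed by 0.82 on the log2 scale. That of the duct markers was -0.62 and -0.15 in PBS tumors and 0.28 and 0.49 in sEphB4-Alb tumors. That of the acinar markers was -2.40 and 0.44 in PBS tumors and -0.65 and 2.62 in sEphB4-Alb tumors, and only in this last list of the 3 did the groups overlap. The part of these cell types in the protease values was not tested.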

How the data were processed

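Total RNA of 4 RT2 tumors was labelled with biotin and hybridised by the authors to Illumina MouseRef-8 v2.0 arrays. The deposited values are linear intensity values, 1 per gene symbol. What software and scaling produced them is not given in the sources used here. Another 8 value columns, matching no single sample, were left out. Intensities underwent normexp correction (offset 50), then log2, then quantile normalization. The background limit was each array's mode plus 1.645 times the spread below the mode. The group comparison used limma 3.58.1 (lmFit, eBayes) under R 4.3.3, with Benjamini-Hochberg adjustment over all genes tested, after the script had been tested on simulated data. Promoters and figures were made with Python 3.11.15, pandas 2.3.3 and matplotlib 3.10.9. Only 4 arrays were available, which limits the precision. Labels set the groups.

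The members, lists and motifs were chosen with earlier results of these data known. Named were all members found, the extreme genes of each list (up to 4), defining markers and the 8 genes with the nearest profile. Genes named outside that rule were chosen after their values were seen. Alternatives changed background correction, normalization, filter, test, fold threshold and replicates. The span under other normalizations was added after seeing the data. Arrays left out were removed after normalization of all 4, and a lone tumor was assumed to vary like the other group. Some results are not reported here.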

Additional observations from a re-analysis of the deposited data

How the results depend on the processing

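Proteases past 2-fold and an unadjusted p of 0.05 numbered 1 of 8 as reported, 0 without background correction, 0 without a filter on dim genes, 0 with unmoderated variances, 2 without normalization between arrays and 6 with the replicate number as a block. The labels do not say whether these numbers pair the tumors. Across genes the differences between tumors 2 and 1 in the PBS and sEphB4-Alb groups correlated at 0.04. A value over all genes cannot decide this for a subset of them. Without known pairs, the count of 6 is not read as a result. The block moved the calls over all genes to 156 higher and 22 lower from 102 and 17. Leaving out each tumor gave median log2 differences of 0.36 to 3.20. Signs turned for Cpb1 without PBS tumor 1, to -0.18, and without sEphB4-Alb tumor 2 for Ctrl (-0.11), Cpb1 (-0.22) and Ela1 (-0.26). Under every other setting run, all 8 kept a positive difference. Over the tumors left out in turn, the differences ran from -0.11 to 1.88 for Ctrl, from -0.22 to 3.27 for Cpb1 and from -0.26 to 3.12 for Ela1. Exact Mann-Whitney-Wilcoxon tests gave p = 0.333 for 1810009J06Rik. Over all genes, higher and lower calls were 67 and 7 without background correction, 299 and 7 with median scaling, 1118 and 3 without normalization, 65 and 15 with genes above background on all 4 arrays and 32 and 8 with unmoderated variances. They were 299 and 169 without PBS tumor 2, 85 and 24 without PBS tumor 1, 152 and 34 without sEphB4-Alb tumor 1 and 121 and 37 without sEphB4-Alb tumor 2. Median scaling and no normalization shifted the median gene by 0.26 and 0.59, and relative to it both gave the proteases differences of 0.93 to 2.69. The span kept a median of 4.09 to 5.64 under the 3 other scalings. Beyond fewer tumors, the cause was not tested. Dim signals limit 2210010C04Rik in both PBS tumors, and Ctrl and Cpb1 in PBS tumor 1.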

Other observations

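Kallikrein genes, a serine protease family that includes the pancreatic Klk1, were looked at after the values had been seen. Of 24 in the table, 5 were tested. Klk1b5 had signals of 129.4 and 316.3 in PBS tumors and 160.5 and 783.6 in sEphB4-Alb tumors, and its log2 difference was 0.51 with a standard error of 0.94. Klk1b4 had signals of 132.5 and 237.4 in PBS tumors and 158.7 and 505.5 in sEphB4-Alb tumors, a difference of 0.38 with a standard error of 0.67. Neither was above background in PBS tumor 1, where the limit was 135.2, so that tumor gives only an upper bound and both differences rest on it. Both genes were brightest in sEphB4-Alb tumor 2. Klk7 and Klk8, also tested, differed by -0.28 and -0.05. Klk7 passed the limit in the PBS tumors only, so it was tested through that group alone. Its signals were 137.8 and 139.2 in PBS tumors and 141.7 and 141.3 in sEphB4-Alb tumors. All 4 were close to the limits, and the sign after normalization was not that of the deposited signals. Klk8 was also dim, at 134.8 to 162.7. The Klk1b genes are near-identical copies of one another and of Klk1, so signal shared between them cannot be told apart.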
